A study of Homo sapiens with 32 samples.

Results

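MCF10A is an immortalized, non-malignant human mammary epithelial cell line that is widely used to follow epithelial-mesenchymal transition (EMT) in culture. The experiment described here set JUNB-edited MCF10A clones, called mut, against wild-type (WT) MCF10A clones after 24 h of exposure to TGFβ1 at 5 ng/ml. It comprised 8 of the 32 RNA-seq libraries of the time course, with 4 libraries a side: WT clones 27 and 2 and mut clones 1 and 65, each in replication 1 and replication 2. The libraries were chosen by their labels alone, and every library below is named by its clone followed by its replication. The other 24 libraries were the same clones in solvent or after 6 h and 72 h of TGFβ1. All clones were derived from single cells. The mut clones carried an extended CRISPR/Cas9 deletion in JUNB, made no wild-type JUNB protein and, per the study's methods and blots, still held a smaller polypeptide. The labels call them JUNB knock-out. Because each genotype was represented by only 2 clones, a difference between genotypes cannot be told apart from a difference between these particular clones, and the p-values below measure the spread between these libraries.

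JUNB is a subunit of AP-1, a family of dimeric transcription factors in which JUN-type proteins pair with each other or with FOS-type and ATF-type partners and bind short palindromic DNA elements. TGFβ1 binds a heteromeric receptor kinase that phosphorylates SMAD proteins, and SMAD complexes and AP-1 often occupy neighbouring sites at genes of the extracellular matrix and of cell motility. In epithelial cells, TGFβ1 slows proliferation and induces EMT, in which cells loosen their junctions, remodel their actin cytoskeleton and secrete matrix and proteases.

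The deposited values were read counts per gene, given here as CPM, counts scaled to the library total, and, for differences, as log2 fold changes of mut over WT with their standard errors (SE). Below, rose and fell mean higher and lower in mut than in WT at 24 h, unless a TGFβ1 response is named. The 8 libraries held 41483904 to 54651906 counts, so that 3 counts corresponded to 0.0549 to 0.0723 CPM, and intervals and floors of this kind cover counting error only. Along the first principal component, which held 48.4% of the variance, the 4 mut libraries lay between -45.6 and -31.1 and the 4 WT libraries between 24.0 and 57.8. WT library 27-2 stood apart on the second component (16.4% of the variance), at 50.4 against -28.5 to 8.10 for the other 7 libraries, so counts that moved without it are given for the gene lists described below. All 12 mammary epithelial markers on the list were measured, with summed levels of 23732 to 28788 CPM in WT and 27109 to 28459 CPM in mut. Of 10 leukocyte and endothelial markers 3 were measured, and their sum was 18.8 to 31.5 CPM in WT and 26.4 to 33.2 CPM in mut. The defining genes PTPRC, CD3E and VWF were below the count filter. Of 10 fibroblast markers 4 were measured, with sums of 67.8 to 91.2 CPM in WT and 33.8 to 47.9 CPM in mut, while COL1A2, COL3A1 and THY1 were below the filter.

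The JUNB transcript itself did not separate the genotypes. JUNB (chr19:12791486-12793315, plus strand, GRCh38) was at 297, 261, 249 and 277 CPM in WT libraries 27-1, 27-2, 2-1 and 2-2, at 253 and 254 CPM in both libraries of mut clone 1, and at 380 and 518 CPM in those of clone 65. The groups overlapped, and clone 65 was the higher of the mut clones. The log2 fold change was 0.31 (SE 0.32) with an adjusted p of 0.48 in limma-voom, and a two-sided exact permutation test of the 4 against 4 values gave p = 0.371, where 0.0286 is the smallest it can give. Because a shortened transcript still yields reads, this level does not check the genotype labels. HOOK2 lies on the opposite strand at the same place, and the counting was not stated to use strand.

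At 24 h the transcriptomes of mut and WT cells differed widely. Of 14865 genes tested with limma-voom, 5492 (36.9%) passed an adjusted p of 0.05, of which 3672 (24.7% of those tested) were higher in mut and 1820 (12.2%) were lower. Every count of calls in a gene list below is to be read against these shares. The median absolute log2 fold change of these genes was 0.43, and 940 of them, 479 higher and 461 lower, differed by at least 1 on the log2 scale. The split by direction depended on the scaling: 66.9% of the called genes were higher in mut when libraries were scaled by their totals, as here, and 48.3% with TMM factors, which place the bulk of the genes at no difference. In the 4 WT libraries the 10 most abundant genes took 7.21% to 8.06% of all counts, against 5.22% to 5.54% in mut. Both scalings called 4206 genes in the same direction, 2386 higher and 1820 lower, and no gene in opposite directions. The genes named below by rule passed both unless stated. Among the called genes, 4607 had no overlap between the 4 mut and the 4 WT libraries, where 35.9% of all genes tested had none, and in 5484 all 4 pairings of a mut clone with a WT clone pointed the same way, as they did in 68.7% of all genes tested. In bulk RNA, fewer cells of a kind and less RNA per cell cannot be told apart.

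**Figure D1:**
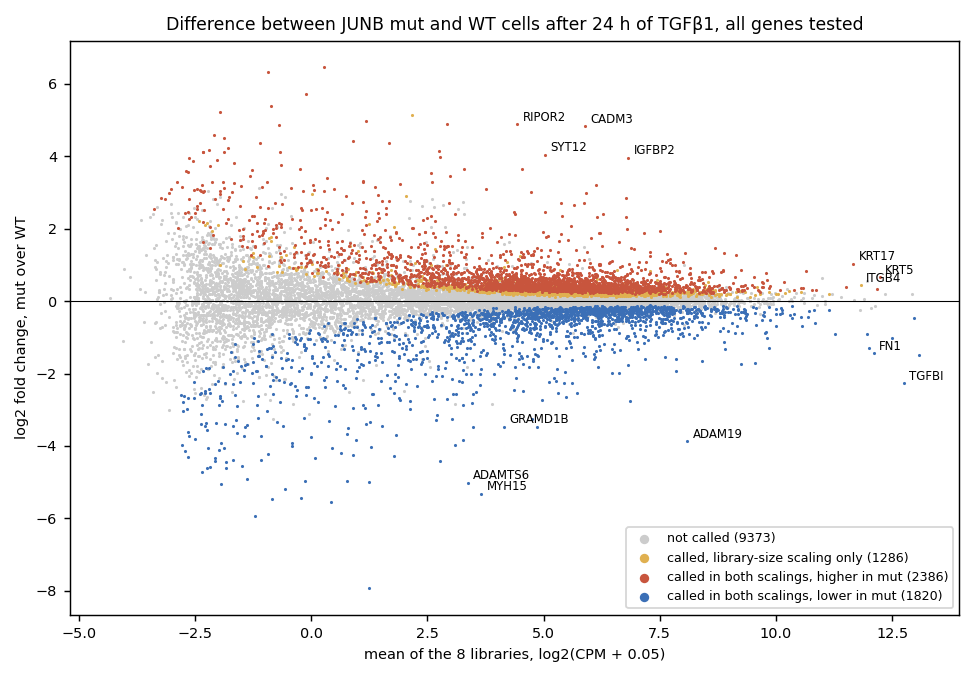
Log2 fold change of mut over WT at 24 h of TGFβ1 (y axis) against the mean of the 8 libraries in log2(CPM + 0.05) (x axis), 1 point per gene tested, coloured by call: 2386 genes higher and 1820 lower in mut with both scalings, 1286 called with library totals only, and 9373 not called. The abundant matrix genes TGFBI and FN1 lie below 0 on the far right, KRT5 and KRT17 above it.

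The genes furthest higher in mut than in WT cells were a mixed set of membrane, signalling and metabolic genes. All of them were at means under 30 CPM in WT cells at this time. A higher level in mut is a difference from WT at 24 h and not a rise over solvent. CADM3, an immunoglobulin-type cell adhesion molecule (chr1:159171609-159203313), was at 2.42, 7.96, 2.49 and 5.53 CPM in WT libraries 27-1, 27-2, 2-1 and 2-2 and at 107, 98.3, 130 and 121 CPM in mut libraries 1-1, 1-2, 65-1 and 65-2. Every mut library was far above every WT library. Its log2 fold change was 4.83 (SE 0.40, adjusted p = 9.74e-10), and it lies opposite AIM2, whose reads cannot be told apart here. RIPOR2 (chr6:24804282-25042170), a regulator of small GTPases, was at 2.45, 0.511, 1.90 and 1.42 CPM in WT and at 34.4, 46.2, 48.9 and 36.1 CPM in mut, a log2 fold change of 4.88 (SE 0.51, adjusted p = 2.81e-08). Again the groups did not overlap. IGFBP2, which binds insulin-like growth factors (chr2:216632828-216664436), was at 19.5, 10.6, 13.4 and 11.5 CPM in WT and at 168, 213, 228 and 240 CPM in mut, a log2 fold change of 3.95 (SE 0.27, adjusted p = 4.51e-11).

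Receptors, channels and enzymes made up much of the rest of that group. FGFR3, a fibroblast growth factor receptor, rose from 16.1 ± 6.12 to 100 ± 11 CPM (SD, n = 4 each; log2 fold change 2.70, SE 0.29, adjusted p = 3.49e-08). SCNN1B, a subunit of the epithelial sodium channel, rose from 6.79 ± 4.29 to 46.0 ± 7.74 CPM (log2 3.0, SE 0.50, adjusted p = 3.88e-05). ENTPD2, an ectonucleotidase that degrades extracellular ATP, was at 30.3, 19.7, 24.6 and 30.1 CPM in WT and at 147, 286, 175 and 159 CPM in mut. Mut library 1-2 was the highest, but all 4 mut libraries stood above all WT libraries, and the log2 fold change was 2.84 (SE 0.29, adjusted p = 1.36e-08). SUSD2 was at 7.96 to 31.6 CPM in WT libraries, and at 101, 199, 100 and 99.2 CPM in mut libraries 1-1, 1-2, 65-1 and 65-2. CYP1B1, a cytochrome P450 that oxidises estradiol, rose from 12.2 ± 6.12 to 71.2 ± 10.2 CPM (log2 2.70, SE 0.32), with CYP1B1-AS1 and RMDN2 on the opposite strand. The remaining genes of this group, SYT12, STAC2, GGT5 and ETNK2, rose by 2.99 to 4.04 on the log2 scale. ERLNC1 overlaps ETNK2 on the opposite strand.

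Genes furthest lower in mut than in WT cells included proteases, an enzyme that generates reactive oxygen species, and a claudin. ADAM19, a membrane-anchored metalloprotease that sheds growth factors (chr5:157395534-157575775), was at 361, 638, 492 and 539 CPM in WT and at 40.5, 20.0, 39.3 and 42.6 CPM in mut. The lowest WT library was still several times above the highest mut library, and the log2 fold change was -3.87 (SE 0.42, adjusted p = 4.63e-08). ADAM19 overlaps CYFIP2 and NIPAL4 on the opposite strand, whose reads cannot be told apart here. ADAMTS6, a secreted metalloprotease (chr5:65148738-65481920), was at 14.3, 24.3, 21.6 and 19.8 CPM in WT and at 0.657, 0.411, 0.627 and 0.702 CPM in mut, a log2 fold change of -5.02 (SE 0.73, adjusted p = 5.03e-06). MYH15, a myosin heavy chain gene (chr3:108380368-108529322), was at 13.7, 26.7, 35.4 and 22.6 CPM in WT and at 0.365 to 0.942 CPM in mut, a log2 fold change of -5.31 (SE 0.79, adjusted p = 7.14e-06). In both genes every mut library was below 1 CPM. MMP9, which degrades type IV collagen (chr20:46008908-46016561), was at 49.4, 61.5, 54.6 and 49.9 CPM in WT and at 13.6, 8.29, 4.41 and 8.08 CPM in mut (log2 -2.74, SE 0.28, adjusted p = 2.70e-08).

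NOX5, an NADPH oxidase that makes superoxide, fell from 19.3 ± 2.15 to 2.77 ± 0.755 CPM (log2 -2.81, SE 0.22, adjusted p = 4.49e-10). MARCKSL1, an actin-binding protein gene, fell from 48.5 ± 8.0 to 5.49 ± 2.45 CPM. CHRNA9, a nicotinic acetylcholine receptor subunit, fell from 204 ± 59.4 to 29.3 ± 6.07 CPM. CLDN4, a tight junction claudin, was the last of this group by fold change, at 36.3, 11.7, 19.3 and 9.19 CPM in WT and 5.61, 3.43, 1.4 and 2.46 CPM in mut (log2 -2.56, SE 0.70, adjusted p = 0.00535). GRAMD1B and AOC1 had log2 fold changes of -3.48 and -3.47.

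**Figure D2:**
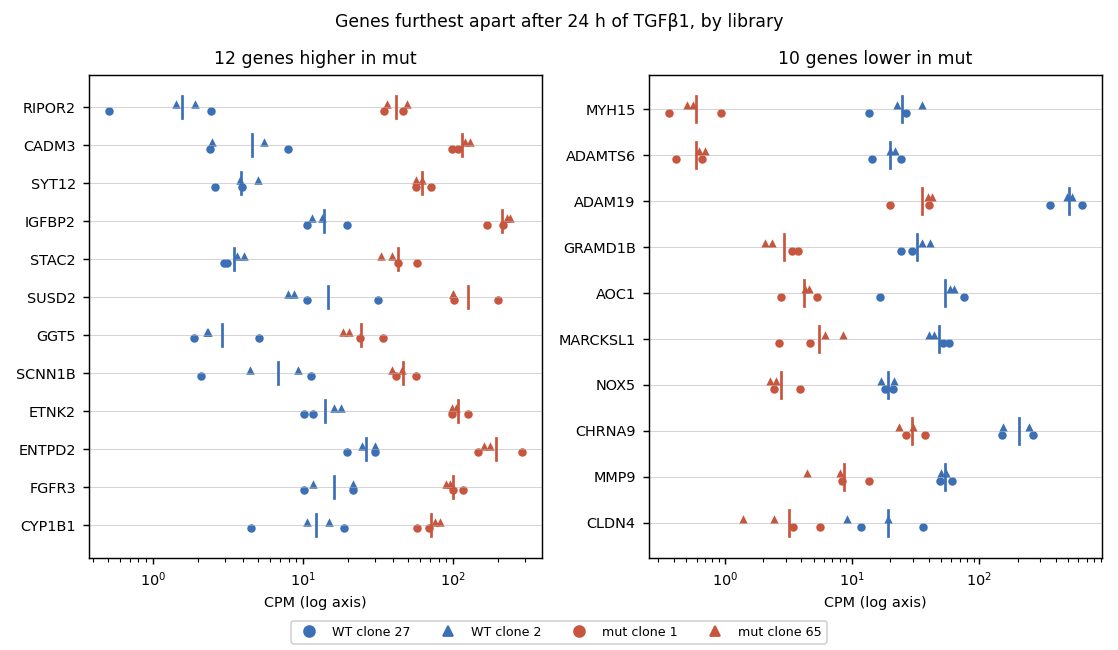
Levels in CPM (log axis) of 12 genes furthest higher and 10 of the genes furthest lower in mut, 1 point per library, with circles and triangles for the 2 clones of each genotype and a vertical bar at each group mean. In all these genes the 4 mut libraries lie on 1 side of the 4 WT libraries, a property the choice of these genes required.

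Measured by the difference in CPM rather than by fold, the transcripts that WT cells held in largest excess were mostly those of the extracellular matrix. TGFBI, a secreted matrix protein named for its induction by TGFβ (chr5:136028988-136063818), was at 10865, 12334, 10851 and 11219 CPM in WT and at 3303, 2127, 2155 and 2004 CPM in mut. More than 1% of all WT reads came from this gene, and no mut library came near that level. Its log2 fold change was -2.27 (SE 0.24, adjusted p = 4.35e-08). LAMA3 and LAMB3, which encode chains of the laminin that anchors epithelial cells to the basement membrane, both fell. LAMA3 fell from 5805 ± 570 to 2371 ± 428 CPM (log2 -1.31, SE 0.18, adjusted p = 2.20e-06), and LAMB3 fell from 5201 ± 501 to 2803 ± 589 CPM (log2 -0.91, SE 0.21, adjusted p = 0.00127). In neither gene did a mut library reach the lowest WT library. With library totals LAMA1, LAMA5 and LAMB1 were not called, at log2 differences of 0.11, -0.10 and -0.08, and LAMA2, LAMC1 and LAMB2 were called lower with TMM factors only.

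FN1, ACTB and ANPEP belonged to the same group. FN1 encodes fibronectin, and was at 3715, 8688, 6301 and 7038 CPM in WT and at 3437, 1534, 2225 and 2297 CPM in mut (log2 -1.44, SE 0.48, adjusted p = 0.0189). The lowest WT library and the highest mut library were almost equal, and the call was lost without WT library 27-2 or without mut library 1-2 (largest adjusted p = 0.0656). ANPEP, an aminopeptidase of the cell surface, fell from 3246 ± 419 to 1719 ± 139 CPM. ACTB fell from 9213 ± 588 to 6747 ± 801 CPM (log2 -0.46, SE 0.13, adjusted p = 0.00708), although near-identical actin copies make its count uncertain.

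The largest excesses in mut, again in CPM, included basal keratins and metabolic genes. KRT5, a keratin of basal epithelial cells, was at 4284, 3262, 3970 and 3431 CPM in WT and at 5481, 6697, 6004 and 5360 CPM in mut (log2 0.66, SE 0.10, adjusted p = 5.04e-06). KRT17, which shares sequence with KRT14 and with its own pseudogenes, was at 3585, 1613, 2036 and 1611 CPM in WT and at 4140, 4513, 4031 and 4381 CPM in mut, so WT library 27-1 came closest to mut. FTH1, the heavy chain of ferritin, rose from 1140 ± 114 to 2039 ± 262 CPM, with the same reserve about pseudogenes. ABCC3, an exporter of organic anions, was at 336, 299, 325 and 382 CPM in WT and at 808, 755, 788 and 849 CPM in mut (log2 1.26, SE 0.11, adjusted p = 2.88e-09). FKBP5, a cochaperone of steroid receptors, rose from 652 ± 38.0 to 1111 ± 55.3 CPM, and SLC7A5, a transporter of large neutral amino acids, rose from 2508 ± 282 to 3301 ± 236 CPM. EEF2, the translation elongation factor, rose by 0.33 on the log2 scale (SE 0.07, adjusted p = 8.06e-04). ITGB4, the hemidesmosomal integrin chain, was at 3093 ± 217 CPM in WT and 4171 ± 404 CPM in mut (log2 0.43, adjusted p = 0.0132), and lost its call with TMM factors (adjusted p = 0.0538). On the opposite strand, GALK1 overlaps ITGB4 and BEST1 overlaps FTH1, and their reads cannot be told apart here.

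Among the other AP-1 genes, the FOS and JUN relatives were at equal or somewhat higher levels in mut. FOS was at 17.8, 15.4, 16.0 and 16.9 CPM in WT and at 34.6, 41.3, 31.0 and 29.2 CPM in mut, with no overlap (log2 1.03, SE 0.17, adjusted p = 3.06e-05). FOSL2 rose from 138 ± 20.7 to 185 ± 16.8 CPM (log2 0.43, adjusted p = 0.0123), a call lost without WT library 27-2 (largest adjusted p over all fits 0.0796). JUN was at 169 ± 10.3 CPM in WT and 223 ± 17.3 CPM in mut, and its call (log2 0.40, adjusted p = 0.0420) was lost with TMM factors and in 12 other fits. JUND and FOSL1, at log2 differences of 0.02 and 0.05, did not pass the test. Of 6 MAF genes measured, MAF fell from 3.91 ± 1.20 to 1.31 ± 0.203 CPM (log2 -1.54, adjusted p = 4.53e-04) and MAFG fell by 0.31 on the log2 scale, while MAFF was called higher with library totals only.

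Within the TGFβ pathway, the receptors and SMAD transducers did not move as a block. Of 15 measured, 4 were higher, 4 lower and 7 not called, with a median log2 fold change of 0.04 against 0.09 for all genes tested. TGFBR1, the kinase that phosphorylates SMAD2 and SMAD3, was at 78.4, 82.7, 93.4 and 78.6 CPM in WT and at 52.3, 41.9, 43.3 and 44.1 CPM in mut, with no overlap (log2 -0.87, SE 0.11, adjusted p = 6.39e-07). SMAD2, SMAD3 and SMAD4 differed by 0.02, 0.09 and 0.04 on the log2 scale and were not called. The activin receptor ACVR1B rose by 0.50, and the transducers SMAD1 and SMAD9 of the bone morphogenetic protein branch rose by 0.40 and 0.78. Of 12 negative feedback genes, 9 were not called, and the share called was 25% against 36.9% of all genes tested. SMAD7, an inhibitory SMAD, fell from 33.6 ± 1.56 to 24.8 ± 2.11 CPM. SMURF1, a ubiquitin ligase that targets receptors and SMADs, fell from 75.9 ± 3.79 to 46.2 ± 4.30 CPM. SKI, a SMAD corepressor, rose from 202 ± 5.06 to 255 ± 17.4 CPM. Of 17 ligand and latency genes, 4 fell and 1 rose. FSTL1, a follistatin-like secreted protein, was at 113, 188, 145 and 120 CPM in WT and at 36.9, 21.5, 45.1 and 42.0 CPM in mut (log2 -1.99, SE 0.25, adjusted p = 5.48e-07), and BMP2 fell from 5.80 ± 1.05 to 2.13 ± 0.586 CPM. TGFB1 itself was at 146 CPM on average in both genotypes.

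Of 19 genes known to respond early to TGFβ, 9 were lower in mut, 2 were higher and 8 were not called (median log2 fold change -0.37; all genes 0.09). Beside TGFBI, ITGA5 was at 593, 652, 620 and 697 CPM in WT and at 350, 274, 266 and 297 CPM in mut (log2 -1.12, SE 0.12, adjusted p = 4.87e-08). ANGPTL4, an inhibitor of lipoprotein lipase, fell from 1205 ± 189 to 589 ± 55.7 CPM (log2 -1.03, SE 0.17, adjusted p = 3.55e-05). CDKN1A, the cell cycle inhibitor p21, fell from 581 ± 29.8 to 345 ± 31.3 CPM (log2 -0.75, SE 0.08, adjusted p = 1.29e-08). The genes higher in mut than in WT were ID1 and KLF10. The SMAD targets SKIL, PMEPA1 and COL7A1 were not called, with log2 differences of -0.18, -0.37 and -0.08. A TGFβ1 response was present in both genotypes: against their own solvent controls, 17 of the 19 genes were called higher in WT and 16 in mut. Of all 14865 genes tested, 2097 were called higher in WT and 1004 in mut. In either direction, the shares of all genes called were 52.1% in WT and 23.8% in mut. The scaling shifted the median of all genes in the WT response from -0.18 with library totals to 0.00 with TMM factors.

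Among EMT regulators and mesenchymal markers, more genes were called lower than higher in mut. Of 12 EMT transcription factors, 5 fell, 1 rose and 6 were not called. SOX4 was at 210, 163, 196 and 183 CPM in WT and at 86.1, 73.5, 68.9 and 72.8 CPM in mut (log2 -1.32, SE 0.12, adjusted p = 3.49e-09), well outside the spread of either group. SNAI2 fell from 328 ± 31.1 to 214 ± 24.8 CPM (log2 -0.62, SE 0.15, adjusted p = 0.00160), and SNAI1 fell from 6.38 ± 0.970 to 3.80 ± 0.514 CPM (log2 -0.75, SE 0.20, adjusted p = 0.00493). FOXC2 rose from 16.7 ± 1.78 to 33.3 ± 1.88 CPM (log2 1.00, SE 0.15, adjusted p = 9.08e-06). ZEB1 (log2 -0.50), TWIST1 (0.28) and TWIST2 (-0.11) were not called. Of 21 mesenchymal markers, 12 fell and AXL rose. NT5E, the ectoenzyme CD73, was at 710, 1090, 890 and 1039 CPM in WT and at 343, 193, 290 and 298 CPM in mut (log2 -1.74, SE 0.22, adjusted p = 5.42e-07). TNC, the matrix glycoprotein tenascin C, was at 327, 166, 196 and 188 CPM in WT and at 95.0, 71.2, 46.9 and 74.4 CPM in mut (log2 -1.60, SE 0.24, adjusted p = 1.08e-05). In both genes all mut libraries were below all WT libraries. The intermediate filament gene VIM fell less, from 1518 ± 239 to 1089 ± 72.7 CPM (log2 -0.47, adjusted p = 0.00348), as did CDH2, the neural cadherin (log2 -0.56, adjusted p = 0.00558).

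Matrix genes were not uniformly lower. Of 22 collagen chains, 9 fell and 5 rose, where 12.2% of all genes tested were lower and 24.7% higher. COL1A1, a chain of fibrillar type I collagen, was at 73.4, 53.4, 65.9 and 52.8 CPM in WT and at 19.8, 14.9, 16.9 and 15.1 CPM in mut (log2 -1.87, SE 0.21, adjusted p = 8.51e-08). COL17A1, the hemidesmosomal collagen, fell from 1314 ± 135 to 530 ± 37.0 CPM (log2 -1.31, SE 0.10, adjusted p = 2.08e-10). COL8A1 went the other way, at 104, 164, 137 and 116 CPM in WT and 281, 245, 311 and 319 CPM in mut (log2 1.17, SE 0.21, adjusted p = 8.16e-05), and COL6A2 rose from 1.97 ± 0.786 to 9.25 ± 2.52 CPM. The 5 higher collagens were no larger a share than that of all genes. In the collagens named, the mut and WT libraries did not overlap, as in 35.9% of all genes tested. Of 14 collagen crosslinking and hydroxylation genes, 7 fell and none rose, including the lysyl oxidase LOXL2 (46.5 ± 19.7 to 20.8 ± 1.62 CPM) and transglutaminase TGM2 (680 ± 62.3 to 274 ± 48.7 CPM). Among 25 matricellular and fibrillar glycoproteins, 9 fell and 3 rose. FBLN5, which organises elastic fibres, was at 26.2, 104, 32.1 and 31.5 CPM in WT and at 181, 83.2, 247 and 189 CPM in mut. It rose (log2 2.00, SE 0.43, adjusted p = 6.18e-04) although WT library 27-2 lay above mut library 1-2.

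Pericellular proteases and their regulators were one of the groups most often lower in mut: 19 of 34 fell and 3 rose (median log2 fold change -0.91; all genes 0.09). The urokinase system accounted for several of them. PLAU, the urokinase plasminogen activator, was at 1072, 1414, 1008 and 1099 CPM in WT and at 417, 315, 336 and 335 CPM in mut (log2 -1.71, SE 0.24, adjusted p = 4.01e-06). Its receptor PLAUR was at 69.99, 59.8, 53.8 and 53.8 CPM in WT and at 26.5, 20.9, 16.6 and 19.8 CPM in mut (log2 -1.51, SE 0.18, adjusted p = 1.70e-07). The inhibitor SERPINE2 fell from 361 ± 41.6 to 96.3 ± 19.4 CPM, so activator, receptor and this inhibitor were all lower. PLAT, the tissue-type plasminogen activator, rose instead, from 88.6 ± 18.0 to 223 ± 19.8 CPM (log2 1.36, SE 0.20, adjusted p = 7.72e-06). MMP14, a membrane-bound collagenase, fell from 568 ± 79.2 to 318 ± 18.0 CPM (log2 -0.83, SE 0.11, adjusted p = 7.29e-07), and MMP10 fell from 4.26 ± 1.88 to 0.435 ± 0.291 CPM.

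Focal adhesion and actin genes were more often called lower than higher in mut, and integrins were called in both directions. Of 18 integrin subunits, 7 fell and 4 rose. The collagen receptor chain ITGA2 was at 823, 687, 845 and 833 CPM in WT and at 471, 385, 435 and 453 CPM in mut (log2 -0.87, SE 0.16, adjusted p = 9.73e-05). ITGB6, whose product with the ITGAV chain binds latent TGFβ, fell from 1132 ± 144 to 620 ± 66.9 CPM (log2 -0.87, SE 0.22, adjusted p = 0.00239). The shared beta chain ITGB1 fell from 2211 ± 132 to 1455 ± 117 CPM (log2 -0.61, SE 0.09, adjusted p = 1.12e-05). Of 21 focal adhesion scaffolds and kinases, 9 fell and 1 rose. KANK4, an adaptor of the cortical cytoskeleton, was at 68.3, 60.4, 75.4 and 80.7 CPM in WT and at 19.4, 13.1, 13.7 and 13.3 CPM in mut (log2 -2.26, SE 0.24, adjusted p = 4.19e-08). FERMT1, the kindlin that activates integrins in epithelia, fell from 346 ± 29.3 to 113 ± 8.98 CPM (log2 -1.61, SE 0.12, adjusted p = 7.79e-11). The scaffold PXN fell from 769 ± 36.9 to 534 ± 8.81 CPM and the kinase PTK2 fell from 258 ± 12.1 to 187 ± 4.58 CPM, differences many times larger than the SD of either group. Of 27 contractile genes, 15 fell and none rose, with a median log2 fold change of -0.23. TAGLN2, an actin-associated calponin relative, fell from 972 ± 124 to 729 ± 43.7 CPM. ACTA2 and TAGLN, markers of myofibroblast contractility, were not called, at log2 differences of -0.02 and 0.28.

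Cell junction genes did not move as a block. Of 11 cadherin and catenin genes, 4 fell and EPCAM rose. EPCAM, an epithelial surface glycoprotein, was at 22.5, 13.9, 16.0 and 11.2 CPM in WT and at 33.1, 47.1, 40.8 and 35.0 CPM in mut (log2 1.30, SE 0.23, adjusted p = 7.51e-05). CDH1, encoding E-cadherin, was at 599, 205, 407 and 338 CPM in WT and at 402, 438, 371 and 377 CPM in mut. The WT libraries of this gene spanned the mut libraries on both sides, with 27-1 highest and 27-2 lowest of all 8, and the log2 difference of 0.14 (SE 0.25, adjusted p = 0.703) was not called. CTNNA1, α-catenin, fell from 721 ± 3.30 to 571 ± 15.7 CPM (log2 -0.34, SE 0.04, adjusted p = 2.48e-07), and plakoglobin JUP fell from 642 ± 115 to 419 ± 41.1 CPM. Of 16 tight junction genes, 5 rose and 2 fell, shares near those of all genes (24.7% and 12.2%). CLDN1 was at 179, 48.0, 95.8 and 75.5 CPM in WT and at 179, 207, 226 and 237 CPM in mut (log2 1.24, SE 0.29, adjusted p = 0.00116), where WT library 27-1 came within rounding of the lowest mut library. PKP2, a desmosomal plaque protein, rose from 61.8 ± 4.95 to 101 ± 11 CPM (log2 0.70, SE 0.09, adjusted p = 5.07e-07).

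Of 18 keratins, 5 rose (27.8%, near the 24.7% of all genes) and none fell. KRT80 was at 30.4, 11.5, 11.9 and 6.69 CPM in WT and at 66.3, 85.4, 67.0 and 59.6 CPM in mut (log2 2.36, SE 0.41, adjusted p = 5.71e-05). Of 18 epithelial regulators, 3 rose and 2 fell, no larger shares than those of all genes (24.7% and 12.2%). The splicing factor ESRP2 rose from 40.3 ± 4.83 to 53.0 ± 1.87 CPM, and the pioneer factor FOXA1 fell from 11 ± 1.33 to 5.92 ± 0.881 CPM. Of 29 squamous differentiation genes, 3 rose, 4 fell and 22 were not called. TGM1, a crosslinker of the cornified envelope, rose from 22.7 ± 11.4 to 69.4 ± 13.1 CPM (log2 1.69, SE 0.37, adjusted p = 7.60e-04). IVL, a substrate of that crosslinker, was at 85.7, 19.4, 27.0 and 12.5 CPM in WT and at 12.1, 12.7, 6.05 and 8.85 CPM in mut. The WT values were led by library 27-1, and the call (log2 -1.56, adjusted p = 0.0330) was lost in 7 alternative fits.

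With TMM factors, 19 protease genes were lower and 2 higher, 16 actin genes lower and 0 higher, 12 mesenchymal markers lower and 1 higher, 10 focal adhesion genes lower and 0 higher, 7 integrins lower and 2 higher, and 9 collagens lower and 5 higher. The balance of calls shifted with this scaling for epithelial regulators (2 higher and 3 lower), for TGFβ receptors and SMAD transducers (3 higher and 5 lower) and for MAF members (0 higher and 2 lower). It also shifted for other lists, among them sterol and fatty acid genes (4 higher and 7 lower) and negative feedback genes (1 and 4). NOTCH genes were then 2 higher and 5 lower, and YAP/TEAD targets 4 higher and 7 lower. Without the 4 libraries of WT series 27-2, 5 epithelial regulators and 2 keratins were called lower, 3 tight junction and 7 ATF4 stress genes higher, and 3 sterol and fatty acid genes and 1 glycolysis gene lower. In the same fit, 2 EMT transcription factors and 2 focal adhesion genes were higher, as were 0 JUN members and 0 of the ATF, JDP and BATF members (1 each in all libraries). Without the 24 h library of that series alone, 2 TGFβ receptors and SMAD transducers were called lower, and 1 squamous differentiation gene, 1 epithelial regulator, 1 FOS member and 1 MAF member higher. The tight junction, sterol and JUN counts were those found without the whole series.

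Among the gene lists, the proliferation genes were called most uniformly. Of 39 DNA replication and G1/S genes, 37 were higher in mut than in WT and none lower (35 and 0 with TMM factors). The median log2 fold change was 0.64 (0.55 with TMM factors), with a range of 0.30 to 1.08. CDT1, which licenses replication origins (chr16), was at 16.0, 19.9, 18.9 and 13.8 CPM in WT and at 30.6, 35.1, 36.6 and 30.1 CPM in mut (log2 0.95, SE 0.16, adjusted p = 4.88e-05). MCM6, a subunit of the replicative helicase (chr2), was at 43.8, 53.5, 56.2 and 41.4 CPM in WT and at 89.4, 85.7, 97.5 and 78.8 CPM in mut (log2 0.86, SE 0.16, adjusted p = 1.49e-04). In both genes every mut library was above every WT library. PRIM1, the catalytic primase subunit, rose from 3.51 ± 0.311 to 6.28 ± 0.480 CPM (log2 0.85, SE 0.16, adjusted p = 1.68e-04). E2F2, a transcription factor of this programme (chr1), was at 2.18, 1.81, 2.04 and 1.01 CPM in WT and at 4.42, 3.61, 3.57 and 3.07 CPM in mut (log2 1.08, SE 0.36, adjusted p = 0.0202), and lost its call without WT library 2-2 (adjusted p = 0.0776) and in 2 other fits.

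Mitotic genes moved the same way by a smaller amount, with 28 of 40 higher and none lower (18 and 0 with TMM factors) and a median of 0.44. TOP2A, which untangles replicated chromosomes, was at 201, 216, 216 and 148 CPM in WT and at 277, 319, 315 and 262 CPM in mut (log2 0.60, SE 0.12, adjusted p = 3.80e-04). CDC25B, a phosphatase that activates cyclin-dependent kinases, rose from 114 ± 13.7 to 197 ± 31.2 CPM, and CCNB2 rose from 23.4 ± 5.07 to 36.9 ± 3.25 CPM. WT library 2-2 was the lowest library for TOP2A, CDT1, MCM6, E2F2 and CCNB2. Of 34 ribosome biogenesis genes, 32 were higher in mut than in WT and none lower (27 and 0 with TMM factors, median 0.41). NAT10, an RNA acetyltransferase of the nucleolus, was at 78.8, 80.9, 89.5 and 89.3 CPM in WT and at 118, 133, 130 and 132 CPM in mut (log2 0.60, SE 0.06, adjusted p = 2.80e-08). NCL, nucleolin, rose from 724 ± 32.5 to 1079 ± 53.8 CPM (log2 0.57, SE 0.07, adjusted p = 2.71e-07). MYC, which drives ribosome production and entry into the cycle, rose from 290 ± 16.7 to 462 ± 31.6 CPM (log2 0.67, SE 0.08, adjusted p = 3.55e-07), and CDK4 rose from 69.9 ± 6.28 to 110 ± 6.12 CPM (log2 0.66, SE 0.07, adjusted p = 1.10e-08). CDKN1A, given above, fell, while the related inhibitor CDKN1C rose from 7.84 ± 3.05 to 26.0 ± 9.52 CPM (log2 1.76, SE 0.34, adjusted p = 2.15e-04).

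In solvent the proliferation genes did not stand higher in mut. There, 12.7% of all genes were called between the genotypes, but limma-voom called 0 of the 39 replication genes with either scaling and 1 of the 40 mitotic genes. At an unadjusted p under 0.05, 7 replication genes were lower in mut and 0 higher, and the replication median was -0.15. Against their own solvent controls, all 39 replication genes fell in WT after 24 h of TGFβ1 (median log2 fold change -1.20) and 20 fell in mut (median -0.42). With TMM factors 39 fell in WT and 12 in mut. The WT and mut responses share the 24 h libraries with the comparison above and are set side by side only. The difference between the responses, tested as an interaction in the same model (9.65% of all genes called), was called for 34 replication, 7 mitotic and 28 ribosome biogenesis genes, in each case with the smaller decrease in mut. With TMM factors these counts were 21, 3 and 24. CDT1 had an interaction of 1.07 (adjusted p = 0.00244), CDK4 one of 0.69 (adjusted p = 4.04e-05) and NCL one of 0.69 (adjusted p = 1.02e-04). At 6 h, where 21.4% of all genes were called, 0 replication genes were called by limma-voom with either scaling (1 lower at an unadjusted p under 0.05), and at 72 h (39.2% called) 9 of 39 were higher in mut. That was no larger a share than the 3864 of all 14865 genes called higher at 72 h. Of the 34 ribosome biogenesis genes, 6 were higher at 6 h and 23 at 72 h. Of the 40 mitotic genes, 1 was higher and 1 lower at 6 h, and 7 were higher at 72 h.

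**Figure D3:**
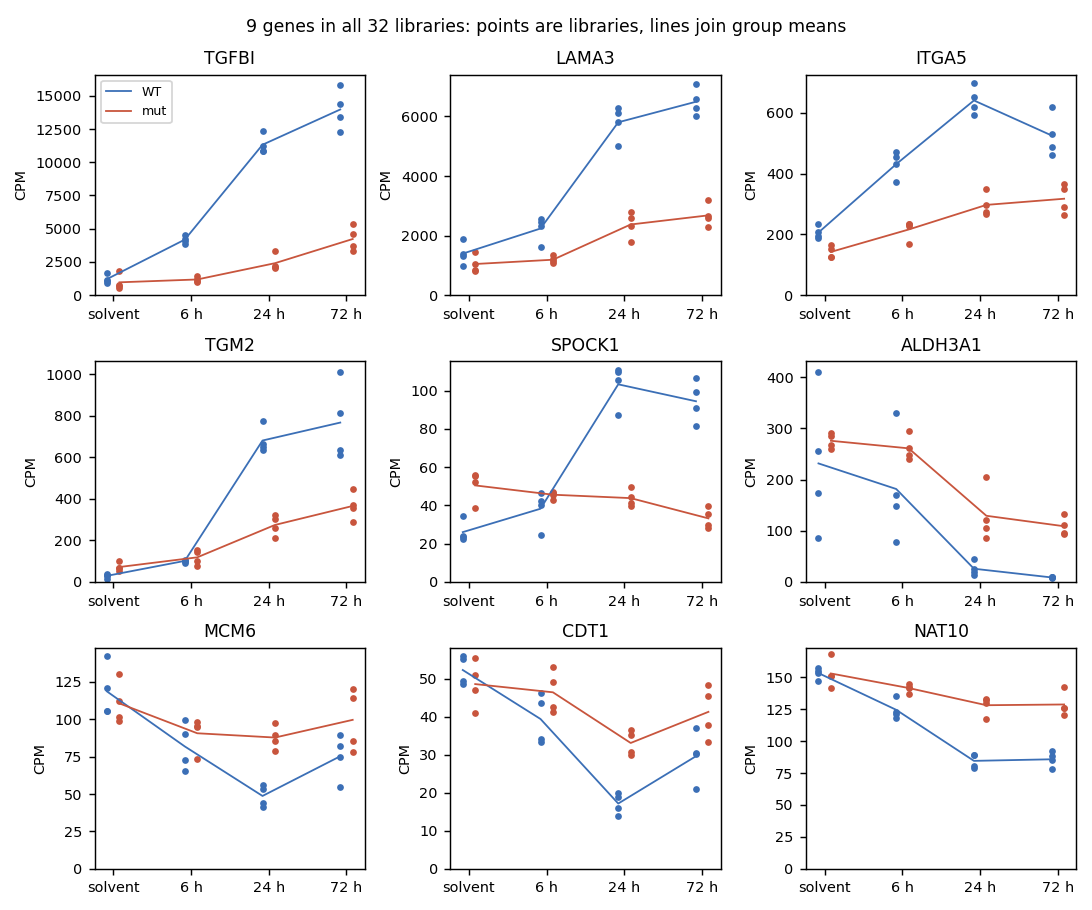
Levels in CPM (linear axis from 0) of 9 genes in solvent and after 6, 24 and 72 h of TGFβ1, 1 point per library, with lines through the means of the 4 WT and the 4 mut libraries. TGFBI and LAMA3 climb further in WT, TGM2 and SPOCK1 start higher in mut and end higher in WT, and MCM6, CDT1 and NAT10 start close together and lie lower in WT by 24 h.

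Promoters of replication genes are shown because 19 of the 34 matched held an E2F-type word, and the windows printed were picked from those 19. RefSeq promoter windows (GRCh38.p14, 250 bases before to 50 after the annotated start) were matched by symbol to 11686 of the 14767 genes tested that carry a symbol. The E2F-type words TTTGGCGC, TTTCCCGC, TTTCGCGC and TTTGCCGC were searched on both strands. These words, chosen after the expression values were seen, overlap each other in part. They occurred in 19 of 34 replication promoters (55.9%), 3 of 33 mitotic promoters (9.1%) and 2 of 30 ribosome biogenesis promoters (6.7%), against 5.1% of all windows. Below are the windows of the 3 called replication genes with the largest fold changes whose promoters held such a word, E2F2 (chr1:23531184-23531483, minus strand), CDT1 (chr16:88803539-88803838, plus strand) and MCM6 (chr2:135876394-135876693, minus strand), 5′ to 3′, with the words in capitals. MCM6 holds 4 matches in 2 overlapping pairs. A match is a description of the letters and not evidence of binding.
E2F2: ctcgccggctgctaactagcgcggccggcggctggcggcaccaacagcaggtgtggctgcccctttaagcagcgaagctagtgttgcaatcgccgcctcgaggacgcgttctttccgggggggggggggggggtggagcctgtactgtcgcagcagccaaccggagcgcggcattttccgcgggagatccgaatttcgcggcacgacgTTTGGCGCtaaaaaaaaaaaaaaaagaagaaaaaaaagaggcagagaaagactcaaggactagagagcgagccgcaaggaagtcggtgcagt
CDT1: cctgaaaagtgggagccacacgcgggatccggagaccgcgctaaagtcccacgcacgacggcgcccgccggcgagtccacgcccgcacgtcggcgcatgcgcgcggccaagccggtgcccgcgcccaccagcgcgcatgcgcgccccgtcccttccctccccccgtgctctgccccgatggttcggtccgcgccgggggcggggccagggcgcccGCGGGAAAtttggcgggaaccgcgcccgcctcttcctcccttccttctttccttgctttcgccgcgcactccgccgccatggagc
MCM6: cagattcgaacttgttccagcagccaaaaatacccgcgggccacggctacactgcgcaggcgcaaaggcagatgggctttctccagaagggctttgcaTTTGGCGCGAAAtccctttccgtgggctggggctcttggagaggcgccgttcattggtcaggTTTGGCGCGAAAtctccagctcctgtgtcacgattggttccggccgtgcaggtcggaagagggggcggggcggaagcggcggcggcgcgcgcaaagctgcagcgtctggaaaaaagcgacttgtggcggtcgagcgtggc

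The AP-1 word TGAGTCA was searched in the same windows on both strands. Its reverse complement reads TGACTCA. It was held by 3.5% of all windows, by 2.5% of those of genes higher in mut, by 5.8% of those of genes lower in mut and by 3.4% of those not called. Among called genes with an absolute log2 fold change of at least 1, it was held by 6.1% of windows of the higher and 9.1% of the lower genes, and by none of the 34, 33 and 30 replication, mitotic and ribosome biogenesis windows. Of the genes furthest apart between genotypes, the windows of ENTPD2 (chr9:137054012-137054311, minus strand), which rose, and CLDN4 (chr7:73830746-73831045, plus strand), which fell, held it, 173 and 161 bases before the start. Their windows are printed with the word in capitals, so that a gene on each side can be compared. Distal elements, where most AP-1 sites lie, are outside these windows, so the absence of the word says nothing about the factor.
ENTPD2: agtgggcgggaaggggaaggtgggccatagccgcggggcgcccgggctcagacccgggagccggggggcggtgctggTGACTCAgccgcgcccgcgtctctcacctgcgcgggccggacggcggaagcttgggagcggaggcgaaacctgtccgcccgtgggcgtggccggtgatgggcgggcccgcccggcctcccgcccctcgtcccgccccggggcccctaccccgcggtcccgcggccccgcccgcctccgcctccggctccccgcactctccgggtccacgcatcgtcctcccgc
CLDN4: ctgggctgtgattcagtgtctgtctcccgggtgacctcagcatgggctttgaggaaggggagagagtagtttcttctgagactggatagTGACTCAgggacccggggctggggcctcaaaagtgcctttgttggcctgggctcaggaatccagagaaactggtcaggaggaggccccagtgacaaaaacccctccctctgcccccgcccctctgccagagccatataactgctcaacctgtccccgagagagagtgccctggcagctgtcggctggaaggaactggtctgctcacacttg

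Among NRF2-linked and ATF4 stress genes, more were called higher than lower in mut. Of 28 NRF2-linked genes, 16 rose and 1 fell (13 and 2 with TMM factors). ALDH3A1, an aldehyde dehydrogenase, was at 25.3, 12.8, 20.0 and 44.8 CPM in WT and at 85.8, 205, 105 and 121 CPM in mut (log2 2.41, SE 0.42, adjusted p = 5.79e-05). The 1 gene called lower with library totals, HMOX1, which degrades heme, was at 12, 20.4, 22.7 and 25 CPM in WT and at 4.23, 4.75, 4.31 and 5.50 CPM in mut (log2 -2.02, SE 0.26, adjusted p = 1.08e-06). AKR1C2 rose from 156 ± 55.4 to 375 ± 31.7 CPM, although AKR1C1 to AKR1C3 are near-identical and reads may be split among them. Of 22 ATF4 stress genes, 11 rose and none fell (6 and 0 with TMM factors), among them DDIT4, an inhibitor of mTOR signalling, from 328 ± 24.3 to 594 ± 89.6 CPM (log2 0.85, SE 0.13, adjusted p = 1.32e-05). Of 28 glycolysis and hypoxia genes, 8 rose and 2 fell, shares near those of all genes (24.7% and 12.2%). HK2, the first enzyme of glycolysis, rose from 19.7 ± 2.68 to 28.1 ± 1.37 CPM, and VEGFA, an angiogenic factor, fell from 192 ± 17.8 to 121 ± 18.5 CPM. Of 27 sterol and fatty acid genes, 5 rose and 5 fell, with a median log2 fold change of -0.04 (all genes 0.09).

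Growth factor, guidance and cytokine genes differed gene by gene. Of 13 EGF family genes, 3 rose and 2 fell, shares near those of all genes (24.7% and 12.2%). EPGN, the ligand epigen, was at 173, 83.6, 143 and 123 CPM in WT and at 259, 289, 287 and 269 CPM in mut (log2 1.12, SE 0.17, adjusted p = 7.59e-06), while the ligand TGFA fell from 89.1 ± 7.53 to 62.4 ± 6.83 CPM. Among 20 ERK feedback genes, 8 rose and 5 fell. EGR1, an immediate early transcription factor, was at 149, 175, 153 and 182 CPM in WT and at 305, 335, 339 and 400 CPM in mut (log2 1.07, SE 0.17, adjusted p = 1.64e-05), whereas the phosphatase DUSP4 was at 303, 339, 352 and 357 CPM in WT and at 180, 165, 176 and 177 CPM in mut (log2 -0.95, SE 0.10, adjusted p = 2.81e-08). So EGR1 and DUSP4, both fed by ERK signalling, lay on opposite sides without overlap. In the IGF axis, the receptor IGF1R fell from 186 ± 4.65 to 107 ± 6.74 CPM (log2 -0.80, SE 0.07, adjusted p = 8.09e-10) as IGFBP2 rose.

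Of 33 WNT genes, 9 fell and 6 rose, and of 42 guidance genes 17 fell and 6 rose. WNT7B was at 8.97, 13.2, 13.9 and 10.6 CPM in WT and at 1.14, 1.05, 1.93 and 1.17 CPM in mut (log2 -3.15, SE 0.37, adjusted p = 1.95e-07). The non-canonical ligand WNT5A fell from 15.5 ± 2.68 to 3.30 ± 0.961 CPM (log2 -2.25, SE 0.23, adjusted p = 2.76e-08). SEMA7A, a membrane-anchored semaphorin, was at 62.5, 94.1, 60.3 and 56.1 CPM in WT and at 14.4, 9.96, 10.2 and 11.5 CPM in mut (log2 -2.55, SE 0.29, adjusted p = 1.46e-07). These 3 ligand genes were lower in every mut library. UNC5B went the other way, at 17.1 to 39.7 CPM in WT and 50.8 to 108 CPM in mut (log2 1.42, adjusted p = 0.00120). So did WNT10A, near the floor at 0 to 0.674 CPM in WT and 1.23 to 2.44 CPM in mut (log2 3.03, adjusted p = 0.00375). Of 19 NOTCH genes, 5 fell and 4 rose; the ligand JAG1 fell from 249 ± 17.9 to 132 ± 28.7 CPM and HES2 fell from 82.4 ± 20.1 to 33.8 ± 1.81 CPM. Of 25 YAP/TEAD targets, 5 fell and 4 rose, with log2 differences from -1.74 to 2.09 across the list. The canonical targets CCN1 and CCN2, at log2 differences of -0.30 and 0.37, were not called. ANKRD1, at low CPM in both genotypes, was the highest of the list and rose (log2 2.09, adjusted p = 4.14e-04).

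Of 24 chemokine and cytokine genes, 10 fell and 4 rose. IL1B, the pro-inflammatory interleukin 1β, was at 83.5, 83.5, 94.3 and 97.2 CPM in WT and at 17.3, 16.0, 11.2 and 17.7 CPM in mut (log2 -2.54, SE 0.28, adjusted p = 5.23e-08). CSF3, a granulocyte growth factor, was at 44, 80.3, 57.2 and 60.6 CPM in WT and at 17.5, 17.4, 11.1 and 9.93 CPM in mut (log2 -2.11, SE 0.20, adjusted p = 6.76e-09). The leukocyte markers PTPRC and CD3E were below the count filter in these libraries. Of 28 interferon-stimulated genes, 6 fell and 5 rose, and of 18 MHC class I and antigen processing genes, 2 rose and 1 fell. B2M, at a log2 difference of -0.02, was not called, and the chaperone CALR fell from 984 ± 45.7 to 685 ± 24.7 CPM.

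The same clones in the other states show which of the 24 h differences were already present without TGFβ1. Of the 5492 genes called at 24 h, 1227 were also called in solvent in the same direction, which is 22.3% of the 24 h genes and 65.0% of the 1887 solvent genes. At 6 h the shared genes numbered 2270 (41.3% of the 24 h genes and 71.5% of the 6 h genes), and at 72 h 4102 (74.7% and 70.4%). Opposite calls were rare, 32 in solvent, 6 at 6 h and 1 at 72 h. These states use separate libraries of the same 4 clones, so a property of 1 clone recurs in all of them. Of the 24 genes furthest apart at 24 h, 22 were called in solvent in the same direction, NOX5 and CLDN4 being the exceptions. The solvent log2 fold changes were 5.76 for CADM3, 3.43 for STAC2, 3.05 for RIPOR2, -2.70 for ADAM19 and -2.96 for GRAMD1B.

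Other genes were called at 24 h but not in solvent. By rule, 2725 genes met this description with an absolute solvent difference under 0.5. Not being called in solvent does not show that a gene was level there. Among all genes tested, the interaction was called for 1434, and for 856 with TMM factors. The 8 furthest higher of the 2725 were ALDH3A1, TGM1, CHST2, SLC29A2, ADORA2B, SRGAP3, RAPGEFL1 and EPGN. ADORA2B, an adenosine receptor, was at 16.2, 13.3, 20.0 and 15.4 CPM in WT and at 37.0, 41.1, 38.2 and 37.9 CPM in mut at 24 h (log2 1.27, SE 0.11, adjusted p = 1.62e-09), against a solvent difference of 0.23. The difference between those values was itself called (interaction 1.04, adjusted p = 7.31e-05). The rule picked these genes for a small solvent and a large 24 h difference. The interaction is built from those same values, so its p-values in this paragraph are not independent of the choice. The 8 furthest lower were CLDN4, TGFBI, HMOX1, FBN1, SLC46A3, TPST1, PRR5L and FLRT2. TGFBI, for example, differed by -0.46 in solvent (adjusted p = 0.198) and by -2.27 at 24 h, with an interaction of -1.81 (adjusted p = 0.00132). SLC46A3, a lysosomal transporter gene, was at 169, 187, 151 and 185 CPM in WT and at 63.9, 42.1, 48.4 and 50.9 CPM in mut at 24 h (log2 -1.76, SE 0.17, adjusted p = 1.03e-08; interaction -1.35, adjusted p = 0.00451). FLRT2, an adhesion and guidance protein gene, fell from 144 ± 31.2 to 56.4 ± 8.55 CPM (interaction -0.98, adjusted p = 0.0265). For CLDN4, TGM1, CHST2, SLC29A2, RAPGEFL1, EPGN and FBN1 the interaction was not called (adjusted p of 0.0597 to 0.159), so a dependence of the difference on TGFβ1 was not shown for them.

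A few genes were called in opposite directions in solvent and at 24 h. TGM2, which crosslinks matrix proteins (chr20:38127385-38166578), was at 636, 772, 665 and 648 CPM in WT and at 323, 213, 260 and 300 CPM in mut at 24 h (log2 -1.33, SE 0.22, adjusted p = 2.55e-05), whereas in solvent it was higher in mut by 1.33 (adjusted p = 6.66e-04). Its response to TGFβ1 was 4.62 in WT and 1.96 in mut, and the interaction was -2.66 (adjusted p = 2.80e-05). Opposite calls were the rule for choosing these genes. A large interaction follows from that choice, so the interaction p-values in this paragraph add no separate evidence. SPOCK1, a testican proteoglycan (chr5:136975298-137598379), was at 87.0, 111, 110 and 105 CPM in WT and at 41.3, 39.7, 44.6 and 49.5 CPM in mut (log2 -1.24, SE 0.15, adjusted p = 2.31e-07) but was higher in mut by 0.97 in solvent. With TGFβ1 it rose by 2.01 in WT, and its change in mut was not called (log2 -0.19). The interaction was -2.20 (adjusted p = 1.12e-06). MMP2, SMPD1 and VASN changed sides in the same way, from 1.30, 0.24 and 0.69 in solvent to -0.74, -0.62 and -0.41 at 24 h. MMP2 lost its 24 h call without WT library 27-2 (adjusted p = 0.0786), and VASN without mut library 65-1 (adjusted p = 0.0842). TIMM21, a mitochondrial import component, changed sides the other way, from -0.26 to 0.43 (interaction 0.69, adjusted p = 0.00109).

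**Figure D4:**
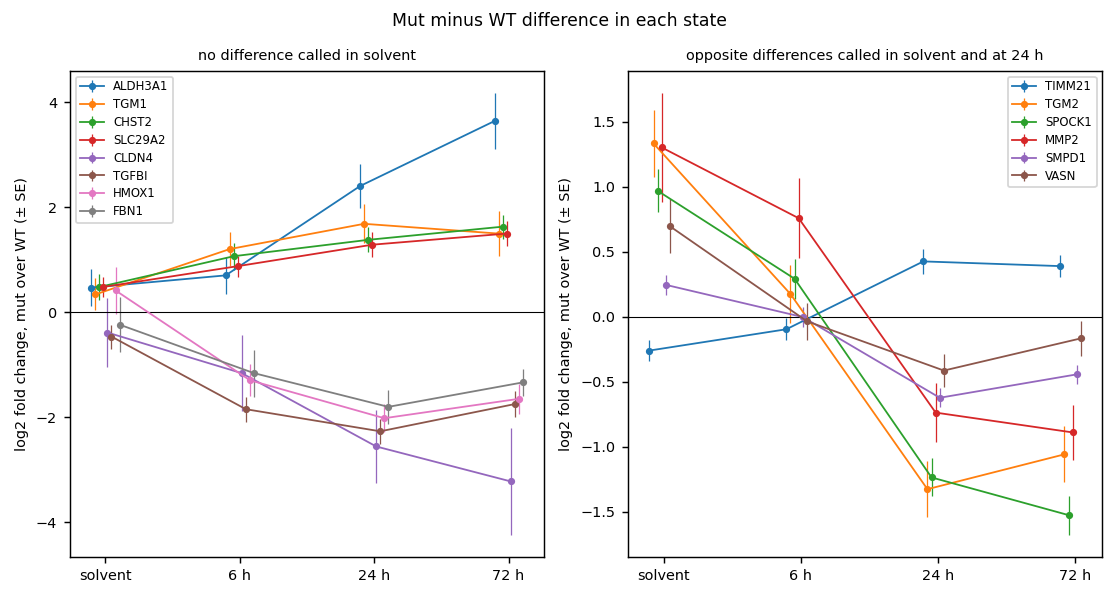
Log2 fold change of mut over WT with its SE (y axis) in solvent and after 6, 24 and 72 h of TGFβ1 (x axis), for 8 genes with no difference called in solvent (left) and 6 genes with opposite differences called in solvent and at 24 h (right). On the right TGM2, SPOCK1, MMP2, SMPD1 and VASN pass from above to below 0 and TIMM21 passes the other way.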

How the data were processed

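Paired-end RNA-seq libraries (TruSeq RNA kit, which does not mark strand) were mapped by the authors to Ensembl GRCh38 with STAR after trimming with Trimmomatic, versions not given in the sources used here, and the deposited table holds raw read counts per gene for 32 libraries and 17788 genes, each with at least 4 counts in all. Use of strand in counting was not stated, so overlapping genes on opposite strands cannot be told apart. CPM were computed from the counts and are not per length, so levels were not compared between genes.

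Groups were taken from the labels. Counts were fitted with limma-voom (limma 3.58.1, edgeR 4.0.16, R 4.3.3) over all 32 libraries with 1 mean per condition, scaled by library totals, after a low-count filter (minimum count 10, minimum total 15) that left 14865 genes, with Benjamini-Hochberg adjustment and a threshold of 0.05. Alternatives were TMM factors, edgeR's quasi-likelihood test, DESeq2 1.42.0, other filters, the 8 libraries alone, blocks for replication or clone, clone sums and left-out libraries. The script was tested on simulated data.

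Named genes were the 12 furthest by log2 fold change and 8 by CPM difference in each direction, with a mean of at least 10 CPM and no overlap, the 8 in each direction with an absolute solvent difference under 0.5 and an adjusted p there of at least 0.05, up to 6 genes of opposite call, and from each list up to 5 called members by fold change plus members that define it. PLAU, PLAUR, SERPINE2, PLAT, MMP14, ITGB1, VIM and CDH2 are such defining members, picked after their values were seen. The members, lists and named genes were chosen with earlier results of these data known. The replication number did not pair libraries across genotypes: correlations of deviations lay between -0.0805 and 0.0794. Some genes that met the rule are not reported here.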

Additional observations from a re-analysis of the deposited data

Results flagged for a closer look

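Dixon's ratio covered groups of 4 libraries for genes named by rule, JUNB, library totals and the share of the most abundant genes. In 7 of 118 such groups a library lay far from the other 3, where chance gives about 1 in 20. In mut these were ADAM19 (ratio 0.894, library 1-2 lowest), FKBP5 (0.834, 1-2 highest), SLC7A5 (0.884, 65-1 lowest), SRGAP3 (0.942, 1-1 lowest), SUSD2 (0.975, 1-2 highest) and TGFBI (0.855, 1-1 highest). In WT it was SLC7A5 (0.851, 27-1 highest).

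For 11 of 36 genes furthest apart by fold change or by CPM, the difference between mut and WT at 24 h differed from that in solvent by the interaction test of limma-voom. Of all genes tested, 9.65% had an interaction called. The 36 genes were picked for a large 24 h difference, which is part of the interaction. Their interaction calls are therefore not independent of the choice. On the log2 scale the interaction was 2.32 for SYT12, 1.83 for RIPOR2, 1.51 for GGT5, 1.5 for IGFBP2, 1.44 for ENTPD2, 1.20 for FGFR3, 0.48 for SLC7A5 and 0.30 for FKBP5. It was -1.89 for NOX5, -1.81 for TGFBI and -0.89 for LAMA3. With TMM factors RIPOR2, GGT5, FGFR3, SLC7A5 and FKBP5 no longer passed.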

How the results depend on the processing

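The number of genes called at 24 h (5492) was 4939 with TMM factors, 5044 with edgeR's quasi-likelihood test, 5254 with DESeq2, 5379 without the low-count filter, 5270 with a mean count of at least 50, 5348 in the 8 libraries alone, 4164 on clone sums and 4981 with clone as a random block. Leaving out 1 library gave 4558 to 5146 calls, 3001 to 3493 higher and 1474 to 1709 lower in mut. The replication number as replicate block gave 5776 calls, 3840 higher and 1936 lower. The number higher in mut moved most, to 2386 with TMM factors, 2261 with TMM factors and without the WT 27-2 series, and 2124 with TMM factors and clone as a random block. The last pair of fits was added after seeing the data. By construction, fewer genes (940, of which 479 higher and 461 lower) passed when calls also had to reach 1 in absolute log2 fold change. The interaction, called for 1434 genes, was called for 856 with TMM factors, 932 with edgeR and 724 without the mut 1-2 series; the cause was not tested. No named gene that was called changed sign, while CDH1, which was not called, went from 0.14 to -0.21 with TMM factors and without the WT 27-2 series. The scaling moved the median of all genes at 24 h from 0.09 to 0.01. At these depths, genes near 3 counts per library cannot be compared.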
